A study of Rattus norvegicus with 90 samples.

Results

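The 200 transcripts described here stood higher in vehicle-treated primary rat hepatocytes at 24 h than in hepatocytes given vehicle for 9 h or thioacetamide-S-oxide for 24 h. They were selected from 40071 annotated transcripts on the measured levels themselves. The level of a transcript was its estimated count as CPM, counts per 1000000 counts on transcripts, and log2(mean CPM + 1) in vehicle 24 h was set against that in vehicle 9 h, low dose 24 h and high dose 24 h. The smallest of these 3 differences exceeded 1 for 332 transcripts, and the 200 with the largest values were taken. Because those contrasts chose the members, their values are given below as a description and were not tested.

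The series holds 90 RNA-seq libraries in 18 groups of 5, from primary Sprague-Dawley hepatocytes, renal cells and cardiomyocytes cultured for a further 18 h and then exposed for 9 or 24 h. Each cell type received vehicle, a low dose or a high dose of thioacetamide-S-oxide. Hepatocytes received 0.025 mM (low) or 0.125 mM (high), renal cells 0.125 or 0.5 mM and cardiomyocytes 0.5 or 1.5 mM. Vehicle was the maintenance medium of each culture, given by the labels as EpiCM in renal cells and MM250 in hepatocytes, and the hepatocyte medium carries another name in the study's methods. The hepatocytes and the renal proximal tubular cells were purchased frozen stocks. The files give Ensembl transcript identifiers without gene names, so the cell types could not be checked against their marker genes and the members are named by identifier, without a function.

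Thioacetamide is a classic experimental liver toxicant that is oxidised in the liver, mainly by cytochrome P450 enzymes, to thioacetamide-S-oxide and then to a reactive S,S-dioxide that binds proteins and lipids. Primary hepatocytes carry out this oxidation in vivo, but in culture they lose part of their differentiated expression programme over hours to days. Vehicle cultures of the same age are therefore the usual reference for a dosed culture, since time in culture alone alters transcript levels.

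Vehicle 24 h was represented by 4 libraries, since library MS-183 was left out. It held 249303 counts on transcripts, which was 8.33% of its counts, against 84.1% to 93.5% in the other 4 libraries of its group. With MS-183 kept, 13 of the 200 members stayed in the list, and 186 still exceeded 1 in the smallest difference. The remaining 89 libraries of the series held between 10519414 and 55822031 counts on transcripts. The vehicle 24 h hepatocyte libraries carry the numbers MS-181 to MS-185, and the other 25 hepatocyte libraries lie between MS-91 and MS-120. The labels do not say what the number marks, so the vehicle 24 h treatment and whatever the number stands for cannot be told apart within hepatocytes. Levels were shares of each library, so that fewer cells of a type and less RNA per cell could not be told apart.

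The 200 members took 26060 ± 2863 CPM together (SD, n = 4) in vehicle 24 h, which was 2.61% of the counts on transcripts. Their sum was 5057 ± 391 CPM in vehicle 9 h, 5238 ± 381 CPM in low dose 24 h and 5969 ± 382 CPM in high dose 24 h (n = 5 each). The 2 groups that the selection did not use gave sums of 5368 ± 298 CPM in low dose 9 h and 6147 ± 449 CPM in high dose 9 h. The lowest vehicle 24 h library, at 22824 CPM, stood above the highest of the other 25 hepatocyte libraries, at 6703 CPM.

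**Figure D1:**
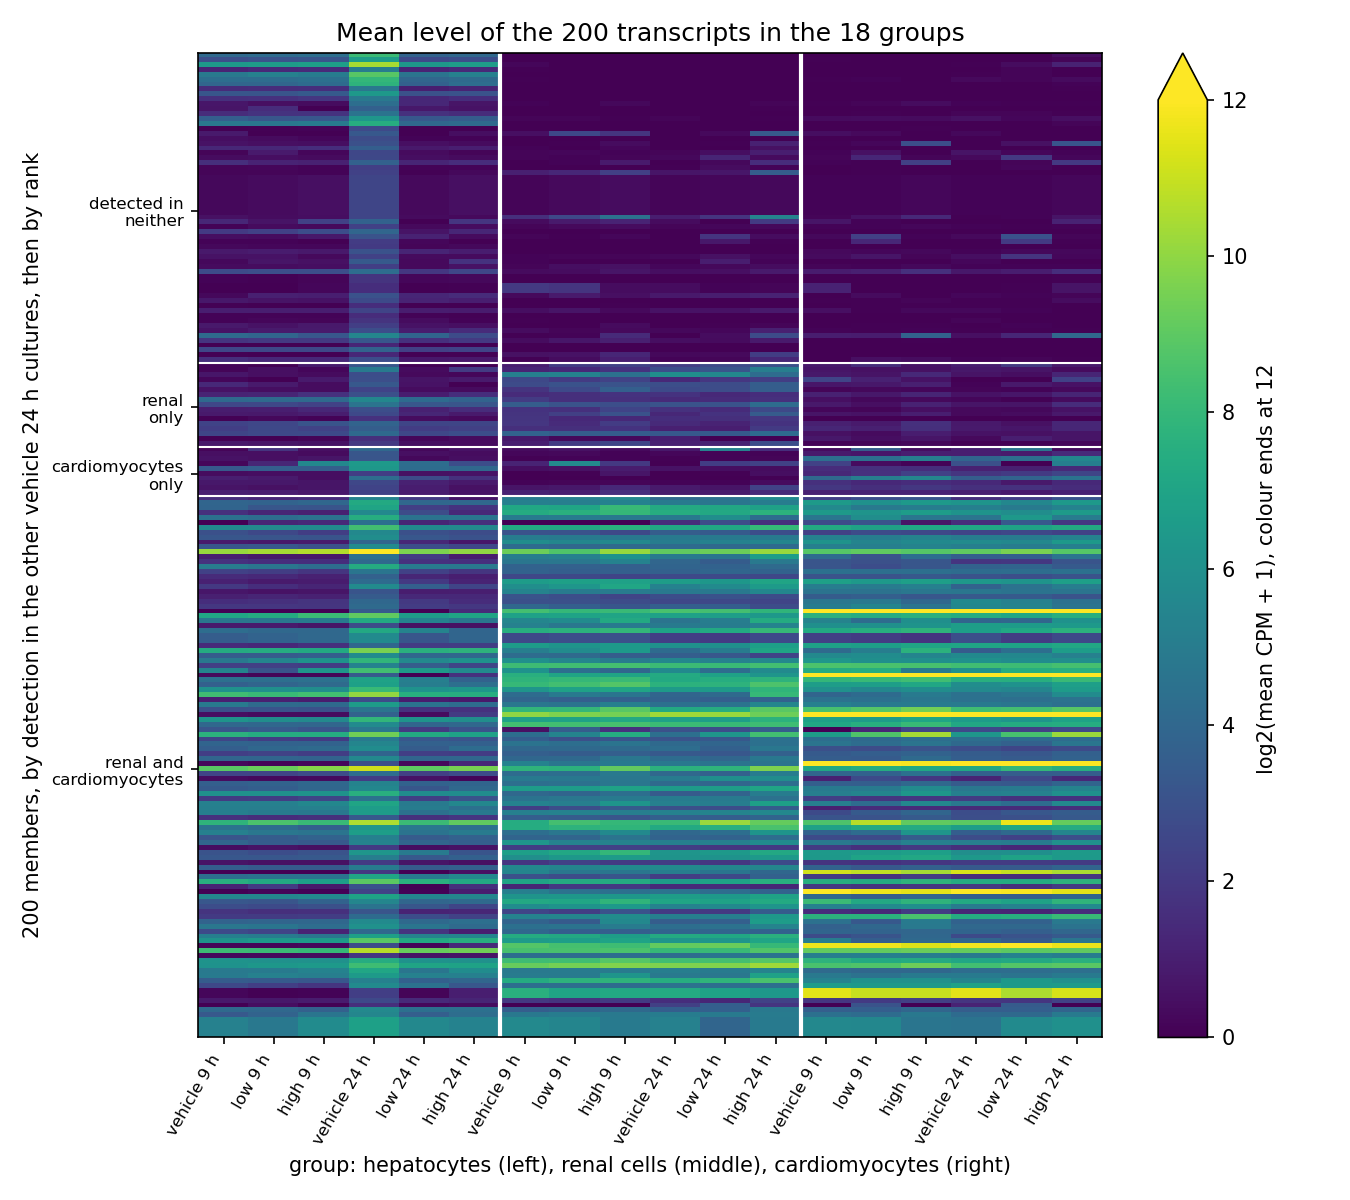
Each row is 1 of the 200 members and each column 1 of the 18 groups, and colour gives log2(mean CPM + 1) over 4 libraries in hepatocyte vehicle 24 h and 5 in every other group. Rows are ordered by whether the member reached 1 CPM in the vehicle 24 h cultures of renal cells or cardiomyocytes. Hepatocyte vehicle 24 h is the bright column among the 6 hepatocyte groups, whereas the lower block of 110 members is also bright in the other cell types.

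Among members the median difference from vehicle 24 h was 2.16 for vehicle 9 h, 2.04 for low dose 24 h and 1.91 for high dose 24 h, on the log2(CPM + 1) scale. Over the 14418 transcripts at 1 CPM or more in vehicle 24 h the same medians were 0.01, -0.01 and 0.01. The smallest of the 3 differences was that from the high dose for 80 members, from vehicle 9 h for 65 and from the low dose for 55. It reached 2 for 64 members and 3 for 15.

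All 4 vehicle 24 h libraries lay above all 15 libraries of the other groups used by the selection for all but 28 members, that is for 86% of them. This held for 14% of the 14418 transcripts at 1 CPM or more, and since the selection used the same contrast nothing was read from the difference. With the 10 low and high dose 9 h libraries added, all but 31 members stood above every other hepatocyte library. The share over the 14418 transcripts was not taken for this count, so nothing was read from it either. The range of the means of the other 5 hepatocyte groups had a median of 0.58 over members and 0.51 over the 14418 transcripts, on the log2(CPM + 1) scale. It was over 1 for 44 members and under 0.5 for 86.

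For the label of a rise in vehicle 24 h alone, the 2 hepatocyte groups that the selection had left out, low and high dose 9 h, were added. The gap to the highest of all 5 other hepatocyte groups had a median of 1.62 and stayed above 1 for 194 members. The vehicle 24 h values and the rest of these 5 groups chose the members. Most of this gap was thus set by the selection, and it is given as a description. The smallest gap was 0.67, for ENSRNOT00000077598, which ranged from 10.9 to 18.01 CPM over the 4 vehicle 24 h libraries and averaged 7.81 CPM in high dose 9 h. The next smallest was 0.84, for ENSRNOT00000051069, at 44.5 CPM in vehicle 24 h and 24.4 CPM in high dose 9 h. Across cell types the label did not hold, since 79 members were as high or higher in at least 1 of the 12 renal or cardiomyocyte groups.

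The member with the largest smallest difference was ENSRNOT00000074349, a transcript of 546 bases. It stood at 292.8, 273.7, 332.7 and 272.5 CPM in libraries MS-181, MS-182, MS-184 and MS-185. The other 25 hepatocyte libraries lay between 11.7 and 22.1 CPM, so that no library of another group came near. Its level in renal cells and cardiomyocytes was at most 0.369 CPM, in cardiomyocytes at the high dose for 24 h.

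ENSRNOT00000046857, rank 3, was at 1453, 1456, 1225 and 1388 CPM in the 4 libraries. Its means in the other hepatocyte groups ran from 79.7 ± 10.2 CPM in low dose 24 h to 104.7 ± 22.4 CPM in high dose 9 h (SD, n = 5). It was among the 5 most abundant members, and 0 CPM was listed for it in all 5 renal vehicle 24 h libraries. In cardiomyocytes its mean was 0.0433 CPM in vehicle 24 h and 1.24 ± 0.245 CPM at the high dose for 24 h.

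ENSRNOT00000012293 was at 445.8, 499.0, 505.8 and 444.3 CPM against 28.2 ± 5.59 CPM in vehicle 9 h. Every renal library was listed at 0 for it. ENSRNOT00000089382 stood at 110.9, 95.9, 109.2 and 88.4 CPM, and at 6.34 CPM in vehicle 9 h. ENSRNOT00000076074 varied more, with 30.3, 43.8, 20.1 and 38.0 CPM against 1.33 CPM in vehicle 9 h.

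ENSRNOT00000052243 averaged 247 CPM in vehicle 24 h, ENSRNOT00000076464 213 CPM, ENSRNOT00000048383 88.2 CPM and ENSRNOT00000076005 25.9 CPM. Their highest means in any other hepatocyte group were 20.7, 18.7, 9.58 and 2.01 CPM, in the same order. These 9 transcripts of the first 10 shared the same shape, a single high group over a flat floor, and each was under 1.3 CPM in every renal and cardiomyocyte group.

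ENSRNOT00000077914 was the exception among the first 10. It was at 44.1, 15.1, 0.139 and 2.73 CPM in the 4 libraries, so that the 1 library MS-181 gave 71.0% of the sum, and MS-184 lay inside the range of low dose 9 h (0.0472 to 5.25 CPM). In the library left out, MS-183, it was at 14350 CPM. It also spread widely elsewhere, from 0.0784 to 181.96 CPM over the 5 renal low dose 24 h libraries.

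**Figure D2:**
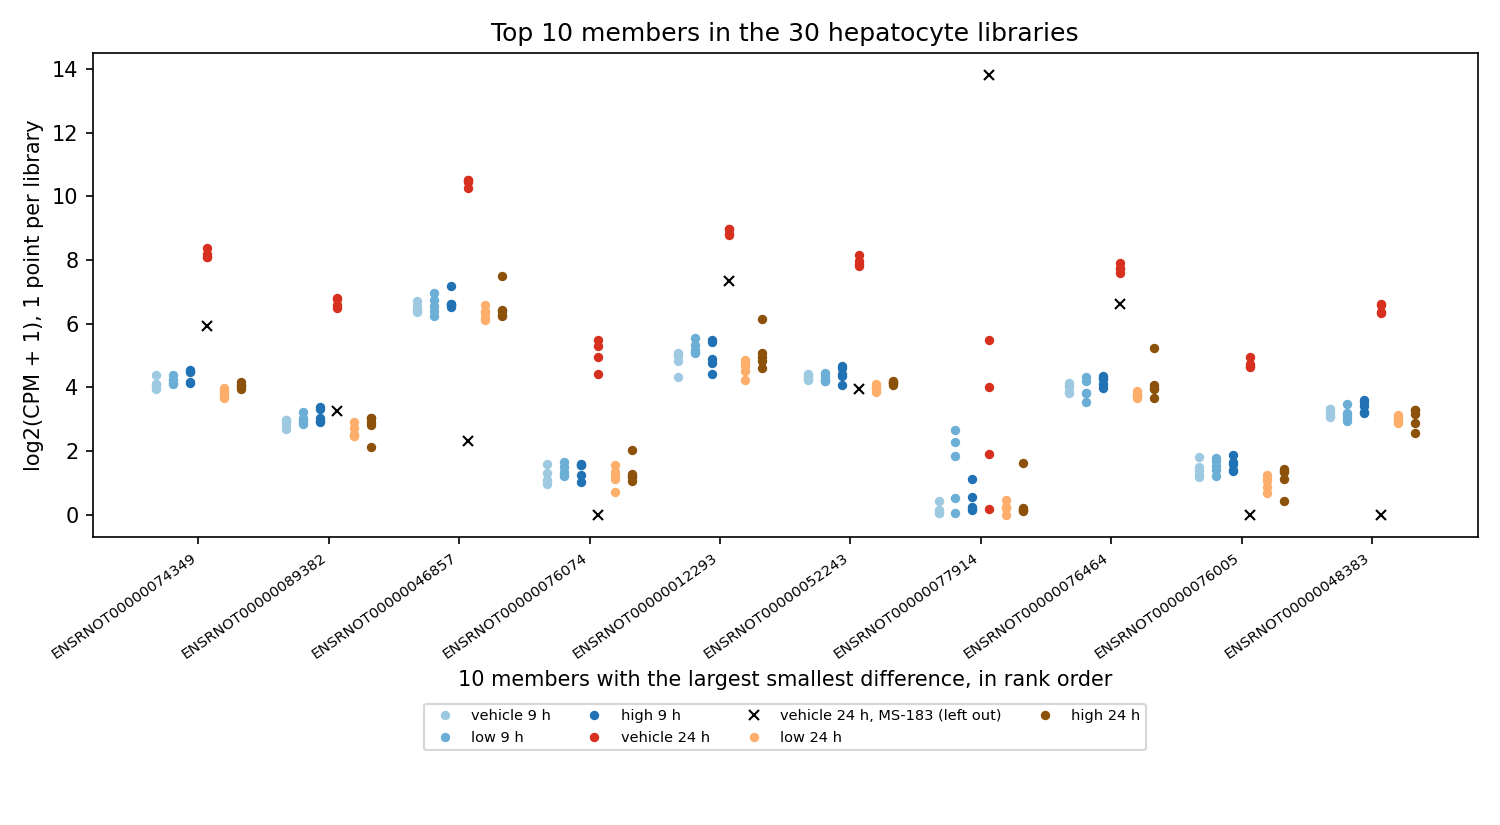
The y axis gives log2(CPM + 1) and each point is 1 library of 1 hepatocyte group, for the first 10 members in rank order on the x axis, with the excluded library MS-183 as a cross. In 9 of the 10 the 4 vehicle 24 h points stand clear of the 25 others, and in ENSRNOT00000077914 they run from 0.139 to 44.1 CPM and overlap them.

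Levels of the 200 members in vehicle 24 h ran from 1.47 to 6042 CPM with a median of 17.7 CPM. Of them 43 were over 100 CPM, 6 over 1000 CPM and 79 under 10 CPM. The 5 most abundant took 48.9% of the summed level. The most abundant of all, ENSRNOT00000069133 (1571 bases), stood at 7093, 5307, 4365 and 7401 CPM in the 4 libraries. It was at 1135 ± 133.5 CPM in vehicle 9 h, 787.1 ± 133.1 CPM in low dose 24 h and 1030.5 ± 145.3 CPM in high dose 24 h, so that it was already abundant in the groups where it was lower.

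ENSRNOT00000040038 was at 2944, 1723, 1539 and 2418 CPM in the 4 libraries, and its means elsewhere in hepatocytes lay between 489 and 897 CPM. ENSRNOT00000014216 was at 1708, 1503, 1968 and 1590 CPM. In dosed hepatocytes it was also higher at 24 h than at 9 h, with 289 ± 18.2 CPM at 9 h and 599 ± 89.5 CPM at 24 h under the low dose, and 266 ± 21.5 and 674 ± 73.6 CPM under the high dose. ENSRNOT00000083571, of 254 bases, was at 783, 2176, 389 and 2545 CPM, and the lowest of these lay within the range of high dose 24 h (344 to 722 CPM).

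Spread among the 4 vehicle 24 h libraries was small for most members. The coefficient of variation had a median of 12.4% against 10.2% over the 14418 transcripts, and it was 20% or more for 68 members and over 100% for 10. In 19 members the highest library gave more than 50% of the summed vehicle 24 h level, and that library was MS-181 for 9, MS-184 for 6, MS-182 for 3 and MS-185 for 1.

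ENSRNOT00000078616 was at 21.4 CPM in MS-184 and at 0 in the other 3 libraries. ENSRNOT00000074325 was at 1296 CPM in MS-181 and between 0.221 and 0.465 CPM in the others. ENSRNOT00000089804 was at 34.9 CPM in MS-184 and at most 0.194 CPM elsewhere in its group. For these 3 transcripts the place in the list rested on 1 library. They were not the only ones, since the highest library gave over 90% of the summed level in 5 members. The smallest difference stayed above 1 for 193 members without MS-181, 198 without MS-182, 194 without MS-184 and 199 without MS-185.

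Some members could not be told apart by the counts. Values in all 90 libraries were identical to those of another transcript for 20 members, which formed 6 sets of which the largest had 8, so that the list held 186 distinct profiles. Ranks 197 to 200 belonged to a single set of 8 identical transcripts of 49 bases, of which ENSRNOT00000087086, ENSRNOT00000085584, ENSRNOT00000089882 and ENSRNOT00000092041 fell inside the list. ENSRNOT00000071640, ENSRNOT00000080037 and ENSRNOT00000087348, just outside, had the same smallest difference of 1.21. Each was at 243, 41.8, 92.1 and 73.9 CPM in the 4 vehicle 24 h libraries against 38.2 ± 16.1 CPM in vehicle 9 h.

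Members were shorter than the transcripts around them. Their median length was 1681 bases (quartiles 746 and 3147) against 2162 bases (quartiles 1422 and 3369) for the 14418 transcripts at 1 CPM or more. Under 300 bases lay 22 members, or 11%, against 1.11%, and 10 of the 22 had the same length. The longest member, ENSRNOT00000023460, had 11866 bases and was at 281, 365, 284 and 318 CPM in the 4 libraries. Estimated counts were whole to within 0.001 in all 90 libraries for 31% of members and 36.4% of the 14418, so that the remaining members shared reads with other targets.

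Detection in the vehicle 24 h cultures of the other cell types, at a mean of 1 CPM or more, divided the list into 4 classes. In neither cell type were 63 members (31.5%) detected, in renal cells alone 17 (8.5%), in cardiomyocytes alone 10 (5%) and in both 110 (55%). The same classes held 7.12%, 3.85%, 2.18% and 86.8% of the 14418 transcripts detected in hepatocyte vehicle 24 h. Members in the class detected in neither had a median level of 5.90 CPM and a median length of 800 bases, whereas those in the class detected in both had 48.7 CPM and 2434 bases. Of the 63, 41 were under 10 CPM in hepatocytes and 9 over 50 CPM, and 12 had values identical to those of another transcript. In all 12 renal and cardiomyocyte groups 42 members stayed under 1 CPM and 15 under 0.1 CPM.

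**Figure D3:**
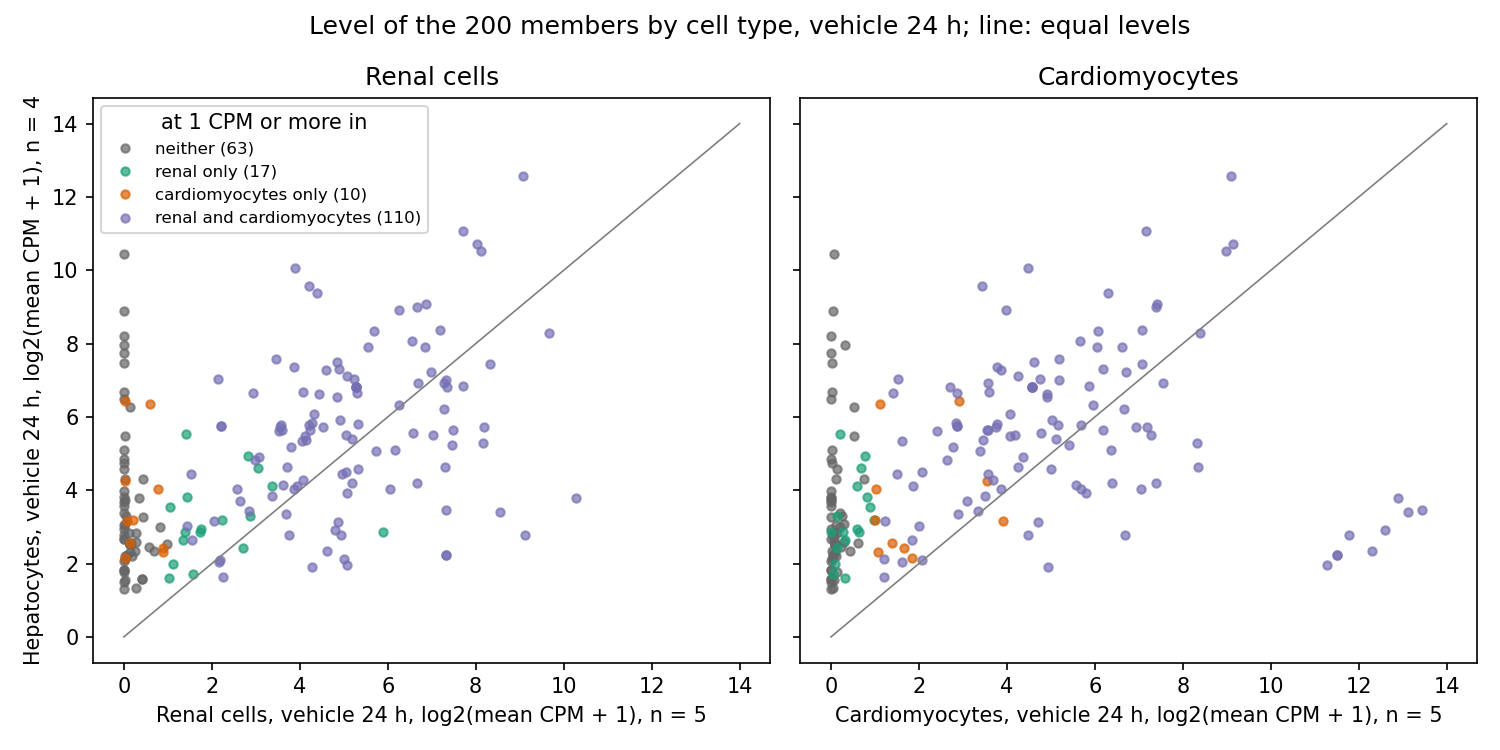
Each point is 1 of the 200 members, with its level in hepatocyte vehicle 24 h (n = 4) on the y axis and in renal cells (left) or cardiomyocytes (right) given vehicle for 24 h (n = 5) on the x axis, all as log2(mean CPM + 1), and the line marks equal levels. The column of points at or near 0 holds most of the 63 members detected in neither cell type, and 9 members at the right of the cardiomyocyte panel exceed 1000 CPM there.

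A group of 9 members was abundant in cardiomyocytes and scarce in hepatocytes. Each exceeded 1000 CPM in cardiomyocyte vehicle 24 h and lay between 2.89 and 12.8 CPM in hepatocyte vehicle 24 h. ENSRNOT00000004956 was at 12.97, 9.93, 7.33 and 9.77 CPM in the 4 hepatocyte libraries and at 11113 ± 390 CPM in cardiomyocytes (SD, n = 5). ENSRNOT00000016423 was at 9.70 CPM against 8864 CPM, and ENSRNOT00000017486, the highest member in renal vehicle 24 h at 1238 CPM, was at 12.8 against 7641 CPM. ENSRNOT00000085201, at 560 CPM in renal cells, was at 5.85 against 3504 CPM.

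The hepatocyte vehicle 24 h values of these 9 were between 0.0483% and 0.201% of the cardiomyocyte level in every library. In MS-183 they reached 121.9 to 1092 CPM. In high dose 24 h their group means lay between 0.461 and 3.24 CPM, and library MS-116 was the highest there, at up to 9.86 CPM. In the other 4 hepatocyte groups they were at most 0.423 CPM.

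A wider check used 8 transcripts taken without reference to hepatocytes, at over 500 CPM in cardiomyocyte vehicle 24 h and over 100 times the renal level, of which 2 were members. Their median share of the cardiomyocyte level was 0.0923% to 0.141% over the 4 vehicle 24 h libraries, 0.0812% in MS-116, 8.75% in MS-183 and at most 0.0110% in the other libraries of hepatocytes. MS-116 thus lay close to the vehicle 24 h libraries. The part of cardiomyocyte transcripts in the levels of the 9 members was not tested. By the definition of the 9, none of the other 191 members exceeded 1000 CPM in cardiomyocyte vehicle 24 h. Of all members, 15 were over 5 times higher in cardiomyocyte vehicle 24 h than in hepatocyte vehicle 24 h.

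Responses to dose and time in comparisons that the selection had not used were then examined, to see how the same transcripts behaved where the hepatocyte vehicle 24 h libraries took no part. edgeR's quasi-likelihood test was run over all transcripts that passed a filter on low counts, and a transcript was called at a Benjamini-Hochberg adjusted p of at most 0.05 with a fold change of 0.41 or more in size on the natural-log scale. Members that passed the filter only through the group in which they were high had to differ, so the counts of calls below describe the members tested and not all 200. Under the high dose against vehicle, the vehicle group alone would have failed the filter for 18.4% and 15.3% of the members called higher in renal cells at 9 and 24 h, and for 9.68% and 16.7% in cardiomyocytes, where these shares were 26.1%, 18.3%, 21.2% and 15.01% over all transcripts called higher. Of the 200, 18 passed the filter in none of the 7 comparisons.

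In renal cells at 24 h, 140 members were tested for the high dose against vehicle, of which 59 rose and 14 fell. That is 42.1% and 10% of those tested, where 12% and 14.9% of all 17798 transcripts tested were called higher and lower. The median log2 fold change was 0.57 over the members tested and 0.02 over all transcripts. At 9 h, when 63 members failed the filter, 49 rose and 18 fell (35.8% and 13.1% of those tested), against 8.16% and 10.9% of 17814 transcripts. The falls at 9 h were 11 with 1 fit per cell type. The 18 falls at 9 h held 14 distinct profiles, and the 14 at 24 h held 13.

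In cardiomyocytes at 24 h, when 69 members failed the filter, 42 rose under the high dose and 7 fell (32.1% and 5.34% of those tested), against 6.01% and 6.39% of 17286 transcripts. The 42 held 39 distinct profiles. At 9 h 66 failed the filter, and 31 rose and 10 fell (23.1% and 7.46%), against 6.22% and 6.41% of 17871 transcripts. The 10 falls held 8 distinct profiles. Their number ranged from 6 (without MS-164) to 15 (without MS-155 or MS-161) with 1 library left out, and was 6 with 1 fit per cell type. Of the 7 that fell at 24 h, 5 were among the 9 members abundant in cardiomyocytes, and so were 8 of the 14 that fell in renal cells at 24 h. The share of falls over all transcripts that abundant in cardiomyocytes was not taken, so nothing was read from these counts.

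The 110 members detected in both other cell types were defined on vehicle cultures, without the dosed ones. In renal cells at 24 h, 39 of its tested members rose and 13 fell (36.1% and 12.04%), where 10.7% and 9.70% of all transcripts of that class were called. In cardiomyocytes at 24 h, 30 rose and 7 fell (27.5% and 6.42%), against 4.84% and 3.46%.

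**Figure D4:**
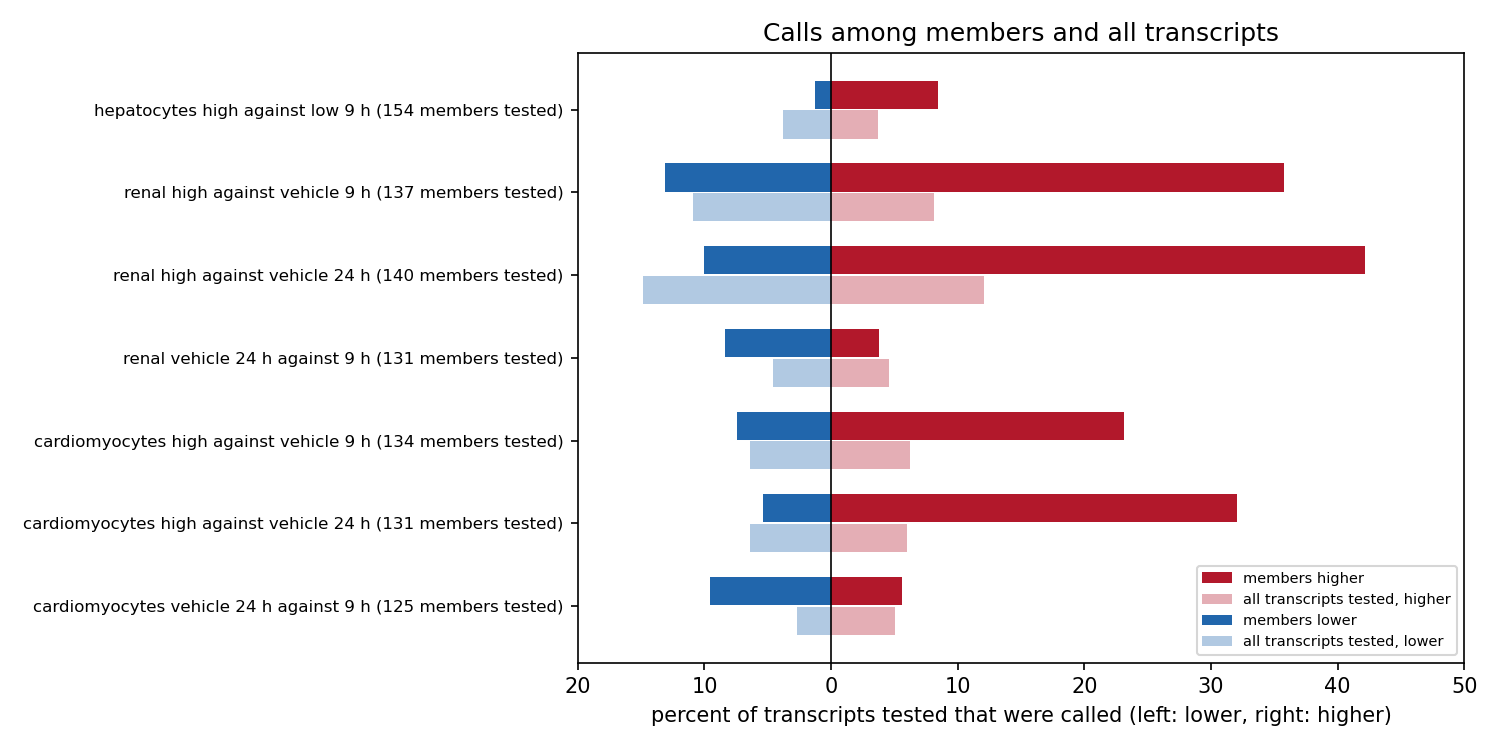
Bars give the percent of transcripts tested that were called higher (right, red) or lower (left, blue), in dark colour for members and in pale colour for all transcripts, in each of the 7 comparisons. Members called higher reach 42.1% in renal cells at the high dose for 24 h, where 12% of all transcripts were called higher, and in the 2 comparisons of vehicle 24 h with 9 h the bars for higher differ by less.

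Vehicle 24 h against vehicle 9 h was 1 of the 3 contrasts that chose the members in hepatocytes. In the other cell types the share of members that rose was near the share over all transcripts. In renal cells 69 members failed the filter, and 5 rose and 11 fell (3.82% and 8.40% of those tested), against 4.55% and 4.55% of 17658 transcripts. The 11 held 10 distinct profiles. In cardiomyocytes 75 failed the filter, and 7 rose and 12 fell (5.6% and 9.6%), against 5.02% and 2.68% of 16921. Those that fell in both cell types were 3, or 2.56% of the members tested in both, where 0.308% of 15921 transcripts did. They were ENSRNOT00000009840, ENSRNOT00000014317 and ENSRNOT00000044854, singled out after their values were seen. Without MS-136 the count of rises in renal cells was 10 and without MS-138 it was 8. The 5 that rose with all libraries were ENSRNOT00000011922, ENSRNOT00000015190, ENSRNOT00000041961, ENSRNOT00000083571 and ENSRNOT00000015094, with log2 fold changes from 0.64 ± 0.13 (adjusted p = 0.00266) to 1.23 ± 0.12 (adjusted p = 1.42e-05).

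In hepatocytes at 9 h, the high dose was compared with the low dose. The filter removed 46 members, and 13 rose and 2 fell (8.44% and 1.30% of those tested), against 3.73% and 3.82% of 16636 transcripts. The falls were 4 with 1 fit per cell type, and 1 without MS-96, MS-97, MS-98, MS-101 or MS-102. The 13 hold 10 distinct profiles, since 4 are the identical transcripts of 49 bases, and 5 of the 13 had 1 library with more than 50% of the vehicle 24 h level. ENSRNOT00000040038 rose by a log2 fold change of 0.63 ± 0.12 (SE, adjusted p = 0.00191), ENSRNOT00000021817 by 0.87 ± 0.10 (adjusted p = 6.3e-05) and ENSRNOT00000051069 by 0.97 ± 0.09 (adjusted p = 1.12e-05). The largest rise, 3.42 ± 0.71 (adjusted p = 0.00313), was that of ENSRNOT00000074325, whose vehicle 24 h level rested on 1 library and whose call was lost with 1 fit per cell type (3.41).

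At 24 h, 26 members rose under the high dose in both renal cells and cardiomyocytes, which is 21.1% of the members tested in both. These were 44.1% of the 59 that rose in renal cells and 61.9% of the 42 that rose in cardiomyocytes. Over all 16116 transcripts tested in both, 312 rose in both, or 1.94%. Among the 26 were ENSRNOT00000008113, ENSRNOT00000027544, ENSRNOT00000048027, ENSRNOT00000057067 and ENSRNOT00000090877. For these the vehicle group alone would have failed the filter in renal cells, cardiomyocytes or both, so the count of 26 is a description only. The libraries of the 2 cell types are separate, so that no control was shared. In all 4 high dose comparisons 9 members rose, 7.44% of those tested in all 4, where 0.799% of 15899 transcripts did. They include ENSRNOT00000090877, with 3, 3, 7 and 1 vehicle counts summed over the group in the 4 comparisons, and ENSRNOT00000008113, with 7 and 3 in renal cells, which passed the filter there through the high dose group and had to differ. The vehicle group alone would also have failed the filter for ENSRNOT00000048027 in renal cells and for ENSRNOT00000008113 in cardiomyocytes at 24 h, so the count of 9 is a description only. The 9 were singled out after their values were seen, and for each of them all 5 high dose libraries stood above all 5 vehicle libraries in both cell types at both times. Since the same contrasts chose the 9, nothing was read from this separation.

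ENSRNOT00000017174 had the highest high dose means of the 9 in renal cells and in cardiomyocytes, at both times. In renal cells at 24 h it was at 20.02 ± 2.23 CPM under vehicle, 78.2 ± 26.9 CPM under the low dose and 333 ± 39.5 CPM under the high dose (SD, n = 5), a log2 fold change of 3.995 ± 0.09 for high against vehicle (SE, adjusted p = 1.73e-10). In cardiomyocytes at 24 h it was at 78.1 ± 7.39, 369 ± 239 and 1168 ± 97.7 CPM, a log2 fold change of 3.89 ± 0.08 (adjusted p = 1.91e-10). In hepatocytes at 24 h vehicle stood highest, as the selection required, with 693, 618, 708 and 640 CPM in the 4 libraries. The low dose gave 157.7 ± 14.97 CPM and the high dose 115.96 ± 14.7 CPM there. At 9 h hepatocytes held 212 ± 12.7, 170 ± 10.1 and 171.7 ± 7.46 CPM under vehicle, low and high dose.

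ENSRNOT00000014317, of 8894 bases, was at 694, 920, 598 and 825 CPM in hepatocyte vehicle 24 h and at most 212.6 CPM on average in the other 5 hepatocyte groups. In renal cells at 24 h it went from 17.5 ± 0.580 CPM under vehicle to 127.4 ± 6.16 CPM at the high dose, a log2 fold change of 2.80 ± 0.05 (adjusted p = 4.7e-11). In cardiomyocytes it went from 9.77 ± 0.910 to 96.8 ± 17.3 CPM, a log2 fold change of 3.29 ± 0.13 (adjusted p = 1.6e-08). It fell between 9 and 24 h under vehicle in renal cells (log2 fold change -0.86 ± 0.04, adjusted p = 3.53e-08) and in cardiomyocytes (-0.73 ± 0.09, adjusted p = 0.000126).

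ENSRNOT00000044854, the 11th member in rank, was at 40.4, 35.9, 47.7 and 34.6 CPM in hepatocyte vehicle 24 h. It fell to 3.31 ± 0.925 CPM under the low dose and 0.606 ± 0.268 CPM under the high dose, values that chose it. In renal cells at 24 h it rose from 15.6 ± 0.713 to 50.4 ± 0.501 CPM (log2 fold change 1.63 ± 0.04, adjusted p = 7.11e-10), and in cardiomyocytes from 2.07 ± 0.248 to 7.56 ± 0.978 CPM (1.85 ± 0.14, adjusted p = 2.54e-06).

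ENSRNOT00000008113 was nearly absent from renal vehicle cultures at 24 h, with 3 counts in the 5 libraries together, and reached 818 counts at the high dose, a ratio per total count of 222 (95% exact interval 75.7 to 1079, covering counting error only). Its level there went from 0.0232 to 5.68 ± 0.348 CPM. In cardiomyocytes at 24 h it went from 0.429 ± 0.170 to 15.4 ± 2.15 CPM (log2 fold change 5.10 ± 0.23), where the vehicle group alone would have failed the filter. In hepatocytes it was a member that fell at 9 h between the low and the high dose, from 14.3 ± 0.623 to 8.69 ± 0.466 CPM (log2 fold change -0.65 ± 0.06, adjusted p = 1.85e-05). At 24 h it was at 44.0 ± 3.84 CPM under vehicle, 13.4 ± 0.908 CPM under the low dose and 5.76 ± 0.592 CPM under the high dose, values that chose it. The other hepatocyte fall at 9 h was that of ENSRNOT00000003182 (-1.12 ± 0.40), for which the high dose group alone would have failed the filter.

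ENSRNOT00000090877, of 485 bases, had 3 counts in the renal vehicle 24 h libraries together and 1 in those of cardiomyocytes, and rose to 1.92 and 3.003 CPM at the high dose. Its level in hepatocyte vehicle 24 h was 12.2 CPM and that in the other hepatocyte groups at most 2.03 CPM. ENSRNOT00000090775 rose from 15.8 to 73.0 CPM in renal cells and from 11.0 to 43.5 CPM in cardiomyocytes at 24 h. ENSRNOT00000009328 went from 35.3 to 85.2 CPM and from 168.04 to 267 CPM, ENSRNOT00000001228 from 39.0 to 73.0 CPM and from 31.3 to 52.8 CPM, and ENSRNOT00000048027 from 0.356 to 0.836 CPM and from 0.683 to 1.96 CPM.

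Since the 9 were chosen for a high dose level above vehicle, nothing was read from the place of the low dose mean between the other 2. The low dose was not tested, and some of its groups spread widely, as in the 54.8 to 605 CPM of ENSRNOT00000017174 over the 5 cardiomyocyte low dose 24 h libraries.

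**Figure D5:**
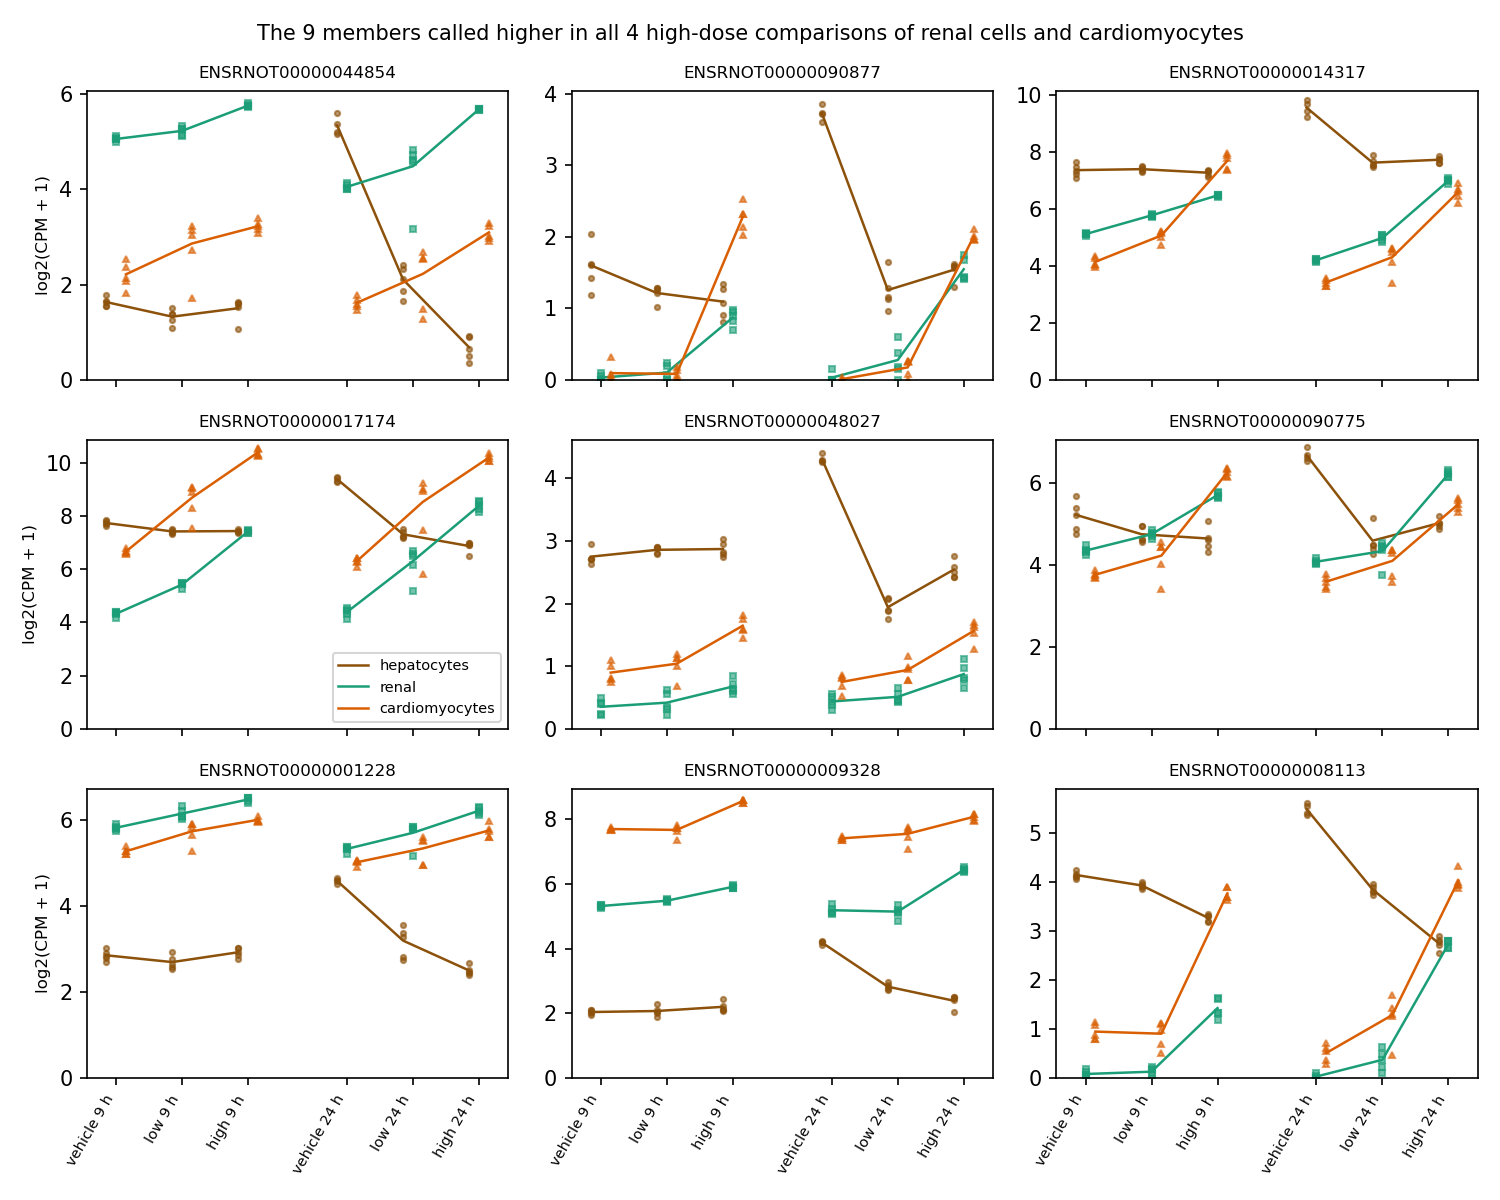
Each panel is 1 of the 9 members called higher in all 4 high dose comparisons of renal cells and cardiomyocytes, with log2(CPM + 1) on the y axis, vehicle, low and high dose at 9 and 24 h on the x axis, 1 point per library and lines through log2(mean CPM + 1), MS-183 left out. In renal cells and cardiomyocytes, where the calls chose the 9, every high dose point stands above every vehicle point. Among the hepatocyte groups vehicle 24 h is the highest, by the selection.

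Other members were named for the largest rise or fall in 1 comparison. ENSRNOT00000041961 was a renal member, at 58.0 ± 2.03 CPM in renal vehicle 24 h against 6.21 ± 0.762 CPM in hepatocyte vehicle 24 h. Its level fell in renal cells under the high dose, to 18.1 ± 1.94 CPM at 24 h (log2 fold change -1.74 ± 0.09, adjusted p = 6.75e-08), the largest fall among members there. In cardiomyocytes at 24 h it was at 0.545 ± 0.129 CPM under vehicle, with a log2 fold change of 1.35 ± 0.34, and the vehicle group alone would have failed the filter. ENSRNOT00000032016 rose in renal cells at 9 h from 2.06 ± 0.347 to 21.7 ± 1.0015 CPM (3.43 ± 0.09, adjusted p = 6.03e-11). In cardiomyocytes at 9 h it was at 0.112 CPM, or 11 counts over the vehicle libraries, and at 1.59 CPM under the high dose, through which alone it passed the filter and had to differ.

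ENSRNOT00000057067, of 747 bases, was listed at 0 in all 5 cardiomyocyte vehicle 24 h libraries and at 7.70 ± 2.18 CPM under the high dose, at least 331-fold higher against a floor of 3 counts over the group. In hepatocytes it was at 6.40, 7.04, 6.62 and 6.56 CPM in vehicle 24 h and at most 0.512 CPM on average in the other groups. Its renal level under the high dose was 1.15 ± 0.291 CPM at 24 h. In renal cells at 24 h and in cardiomyocytes at 9 and 24 h it passed the filter through the high dose group alone and had to differ.

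ENSRNOT00000010811 (hepatocyte vehicle 24 h 489, 450, 518 and 474 CPM) fell in cardiomyocytes at 9 h under the high dose, from 33.3 ± 1.83 to 16.1 ± 1.01 CPM (log2 fold change -1.10 ± 0.06, adjusted p = 7.16e-08). At 24 h it rose there, from 14.8 ± 0.416 to 25.3 ± 2.45 CPM (0.76 ± 0.07, adjusted p = 8.75e-06). ENSRNOT00000041044 fell in cardiomyocytes at 24 h, from 50.1 ± 1.39 to 21.1 ± 2.92 CPM (-1.25 ± 0.09, adjusted p = 1.33e-06). ENSRNOT00000082850 fell from 9 to 24 h in cardiomyocyte vehicle cultures, from 8.04 ± 2.61 to 2.63 ± 0.910 CPM (-1.56 ± 0.27, adjusted p = 0.00138), a call that was lost with 1 fit per cell type (-1.57). ENSRNOT00000011922 rose over the same interval in renal cells, from 2.53 ± 0.261 to 5.57 ± 0.484 CPM (1.23 ± 0.12, adjusted p = 1.42e-05).

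ENSRNOT00000079909 and ENSRNOT00000087945, of 2724 bases, have identical values in all libraries and gave the largest falls in renal cells at 9 h under the high dose (-3.26 ± 1.12) and from 9 to 24 h under vehicle (-3.003 ± 1.03). In each the lower group alone would have failed the filter. In hepatocyte vehicle 24 h they were at 7.98 CPM in MS-184 and at most 0.0726 CPM in the other 3 libraries. Both missed the threshold with DESeq2 (-3.25 and -3.11) and with 1 fit per cell type (-3.25 and -3.04).

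Of the 5 most abundant members, ENSRNOT00000069133, ENSRNOT00000040038, ENSRNOT00000014216 and ENSRNOT00000083571 were called higher in renal cells at 24 h under the high dose, and ENSRNOT00000046857 was not tested there. Whether these responses differed between the cell types was not tested. ENSRNOT00000069133 rose in renal cells at the high dose, from 631 ± 15.1 to 1138 ± 54.4 CPM at 9 h (log2 fold change 0.88 ± 0.03, adjusted p = 4.15e-10) and from 541 ± 59.8 to 1124 ± 227 CPM at 24 h (0.997 ± 0.15, adjusted p = 0.00027). In cardiomyocytes it differed by -0.26 ± 0.11 at 24 h (adjusted p = 0.0978). ENSRNOT00000040038 rose in renal cells by 1.36 ± 0.03 at 9 h (adjusted p = 1.17e-11) and by 1.86 ± 0.16 at 24 h (adjusted p = 4.15e-06), and in cardiomyocytes at 24 h the difference was 0.31 ± 0.11 (adjusted p = 0.0597). ENSRNOT00000014216 rose in renal cells at 24 h (0.66 ± 0.05, adjusted p = 5.64e-07) and was at -0.07 ± 0.05 in cardiomyocytes (adjusted p = 0.381).

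Of the first 10 members, ENSRNOT00000046857 passed the filter outside hepatocytes in 1 comparison, in cardiomyocytes at 24 h, with 0.0433 CPM under vehicle and 1.24 CPM under the high dose. Its vehicle libraries held 5.62 counts together, so that it passed through the high dose group alone and had to differ. ENSRNOT00000077914, which averaged up to 38.0 CPM in the other cell types, was tested in 3 comparisons outside hepatocytes and was called in none of them. In hepatocytes at 9 h none of the first 10 was called between the high and the low dose, with log2 fold changes from -2.50 ± 0.96 for ENSRNOT00000077914 (adjusted p = 0.0643) to 0.33 ± 0.12 for ENSRNOT00000048383 (adjusted p = 0.0567).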

How the data were processed

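RNA was sequenced from 90 cultures, 5 in each of 18 groups, with poly-A selected stranded libraries. The deposited files hold, for each target, estimated counts and TPM that the authors made with kallisto (version 0.42.4, per the labels) on Rnor_6.0. The deposited table lists 65166 targets, of which 40071 are Ensembl transcripts and 25095 genomic intervals, and the intervals were not used here. Also, 2 transcripts are not reported here. TPM served as an alternative scale. Reads shared between transcripts are divided by estimation in kallisto, so near-identical transcripts trade counts. Estimated counts were rounded to whole numbers for tests.

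Library MS-183 was left out. Counts on transcripts ranged from 10519414 to 55822031 in the other 89 libraries. No pair of libraries held identical values. The labels do not say whether the 5 libraries of a group came from separate animals, so p-values measure the spread between these libraries, which may be technical.

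In 7 comparisons that did not use hepatocyte vehicle 24 h, edgeR (version 4.0.16, R 4.3.3) was run with filterByExpr, TMM scaling and the quasi-likelihood test, with Benjamini-Hochberg adjustment over all transcripts tested. A call required an adjusted p no higher than 0.05 and, on the natural-log scale, a change of 0.41 or more. SE was the log2 fold change divided by the square root of F. The low count floor was 3 counts over a group. Alternatives were upper-quartile scaling, DESeq2 (version 1.42.0), no count filter, no fold threshold, 1 fit per cell type and each library left out. On simulated data for the renal high dose at 24 h (17859 transcripts), 91 of 97 transcripts changed by 1 on the log2 scale and 98 of 98 changed by 2 were recovered, none in the wrong direction, and 7 unchanged ones were called.

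The members, lists and tests were chosen with earlier results of these data known. Transcripts named were the first 10 by rank, the 5 most abundant, the highest 3 in renal and in cardiomyocyte vehicle 24 h, the largest rise and fall in each comparison at a mean log2 CPM of at least 0, the longest, the shortest, the 3 on each side of the threshold and those said to be chosen after their values were seen. None of the Ensembl identifiers could be paired with a gene name or a sequence from the reference tables, so no marker list was applied and no sequence is printed.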

Additional observations from a re-analysis of the deposited data

Results flagged for a closer look

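In 52 groups of values checked for a library far from the others of its group, 7 held one, and chance gives about 1 in 20, or 2.6. The summed level of the members was 6635 CPM in hepatocyte high dose 24 h library MS-120, above the 5676 to 5905 CPM of the other 4. It was 14268 CPM in renal low dose 24 h library MS-145, where the others lay between 9942 and 10231 CPM. It was 37738 CPM in cardiomyocyte low dose 9 h library MS-158, below the 45858 to 47906 CPM of the others.

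Within hepatocyte vehicle 24 h, ENSRNOT00000074325 stood at 1296 CPM in MS-181 and at most 0.465 CPM in the other 3 libraries. ENSRNOT00000079909 and ENSRNOT00000087945, which are identical in all libraries, stood at 7.98 CPM in MS-184. ENSRNOT00000032016 was lower in MS-184 than in the others, at 4.29 against 4.87 to 4.95 CPM.

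The change from 9 to 24 h under vehicle differed between cell types for ENSRNOT00000041044. Its log2 fold change was -0.34 in renal cells and 0.996 in cardiomyocytes, a difference of -1.34 ± 0.08 (SE, edgeR interaction, adjusted p = 4.23e-10). The same interaction was called for 53 members, 37.1% of those tested, and for 24.1% of the 18975 transcripts tested.

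The library left out, MS-183, held several members far above the other libraries of its group, where 1 count was worth 4.01 CPM. ENSRNOT00000083571 was at 22936 CPM and ENSRNOT00000077914 at 14350 CPM there. Of the members abundant in cardiomyocytes, ENSRNOT00000016423 was at 1092 CPM, ENSRNOT00000004956 at 1031 CPM, ENSRNOT00000017486 at 915 CPM and ENSRNOT00000085201 at 348 CPM. ENSRNOT00000011922 was at 156.96 CPM and ENSRNOT00000057067 at 112.3 CPM. ENSRNOT00000041961, at 8.02 CPM or 2 counts, was little above the 5.42 to 7.11 CPM of the others. In all, 23 members were over 10 times the highest of the 4 libraries used, whereas 58 were at 0.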

How the results depend on the processing

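Membership depended on the scale and on MS-183. The share of the 200 members that stayed in the list was 64% with a pseudocount of 5 CPM, 51.5% with the deposited TPM and 6.5% with MS-183 kept, against 87% with a pseudocount of 0.5 CPM, 88.5% with the median of libraries and 98% with TMM scaling. With each of the 19 libraries left out in turn, 91.5% to 99% stayed, and 86% to 89.5% of members had vehicle 24 h above all other libraries of the selection (an alternative added after seeing the data). Leaving a library out can only keep or raise this last share, so nothing was read from it.

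Without the fold threshold, calls higher and lower became 32 and 11 in hepatocytes, 77 and 38 in renal cells at 9 h, 23 and 40 for renal time, 55 and 28 in cardiomyocytes at 9 h, and 17 and 35 for cardiomyocyte time. In cardiomyocytes at 24 h, 12 were then lower. These counts rise by construction. With 1 fit per cell type, calls lower became 4 in hepatocytes, 11 in renal cells at 9 h and 6 in cardiomyocytes at 9 h, and the cause was not tested.

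With 1 library left out, calls higher and lower ranged over 11 to 15 and 1 to 3 in hepatocytes (1 without MS-96, MS-97, MS-98, MS-101 or MS-102), 47 to 51 and 12 to 19 in renal cells at 9 h, and 59 to 62 and 12 to 15 at 24 h. They ranged over 4 to 10 and 10 to 12 for renal time (10 higher without MS-136 and 8 without MS-138), 29 to 35 and 6 to 15 in cardiomyocytes at 9 h (6 lower without MS-164), 42 to 47 and 7 to 7 at 24 h, and 5 to 7 and 11 to 14 for cardiomyocyte time.

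No named fold change changed sign. The lowest smallest difference among members turned negative, at -6.19 without MS-181, -0.78 without MS-184 and -5.63 with the median of libraries. Of the named fold changes under these alternatives, 192 kept their side of the threshold and 18 did not, most of them for ENSRNOT00000079909 and ENSRNOT00000087945. ENSRNOT00000074325 (3.41) and ENSRNOT00000082850 (-1.57) missed it with 1 fit per cell type. No paired analysis was possible because the replicate numbers of the labels are unique to each library.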
